A study of Mus musculus with 48 samples.

Results

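Interferon-γ (IFNγ) at 100 ng/ml was set against no stimulation in the mouse melanoma line NMM, which carries mutated NRAS. The comparison used 4 libraries with IFNγ and 4 unstimulated libraries, 1 of each at 2, 6, 12 and 24 h of continuous culture, out of 48 libraries in all. They were chosen by their stimulus label alone, and no measured value entered the choice. Both groups carry the NRAS mutation, grew in the same serum-containing medium and received no other cytokine. IFNα1 at 5000 U/ml, a type I interferon given to the same cells for the same 4 durations, served as a second point of comparison. Libraries with IL-2 at 6000 U/ml, given to the same cells for the same 4 durations, were used as a further reference. The labels do not say whether NMM is 1 clone or whether the libraries came from separate cultures, so p-values measure only the spread between these libraries. The 4 durations are not replicates of each other, and no duration has a replicate of its own.

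The cells are labelled melanoma, and their pigment-cell genes were close to silent. Of 22 melanocyte lineage genes in the table, 8 (Tyr, Tyrp1, Dct, Mlana, Sox10, Gpr143, Slc45a2 and Oca2) had no count in any of the 8 libraries. The list summed to 101 to 207 counts scaled to library size (CPM) with IFNγ and to 88.4 to 107 CPM in unstimulated cells. Much of that sum was Melk, a kinase of dividing cells and not a pigment gene, with 36.4 to 128 CPM with IFNγ and 28.1 to 45.7 CPM in unstimulated cells. The 21 genes of a dedifferentiated melanoma list summed to 13500 to 18800 CPM with IFNγ and to 14500 to 18000 CPM in unstimulated cells. Among them, Axl, a receptor tyrosine kinase, had 1847, 2102, 2184 and 2005 CPM with IFNγ and 1877, 1863, 1986 and 1826 CPM in unstimulated cells at 2, 6, 12 and 24 h, a log2 fold change of 0.11 ± 0.05 that was not called (adjusted p = 0.154, edgeR). Of the 20 tested members of that list, 6 were called higher and 1 lower with IFNγ, against 12.8% and 9.30% of all genes. The 6 higher calls were 4, 4 and 3 without the 6, 12 and 24 h libraries. Among the marker lists of other cells, that of T and NK cells had the lowest sum and that of fibroblasts the highest. In unstimulated cells the fibroblast sum also exceeded that of the melanocyte lineage list. The 18 T and NK cell markers summed to 0.323 to 1.42 CPM with IFNγ and to at most 0.389 CPM in unstimulated cells, with 11 of them at 0 throughout. The 16 macrophage and dendritic cell markers summed to 34.6 to 54.4 CPM with IFNγ and 52.1 to 58.1 CPM in unstimulated cells, with 6 at 0, and the 10 fibroblast markers to 201 to 382 CPM with IFNγ and 346 to 517 CPM in unstimulated cells, with 1 at 0. The 10 endothelial markers summed to 6.14 to 11.2 CPM with IFNγ and 7.9 to 12.2 CPM in unstimulated cells, with 3 at 0. In such bulk libraries, fewer cells of a type and less RNA per cell cannot be told apart.

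IFNγ is the type II interferon, made mainly by activated T cells and NK cells. Its receptor, a pair of IFNGR1 and IFNGR2 chains, activates the kinases JAK1 and JAK2. Their signal reaches GAS elements in the DNA and switches on a first wave of genes, among them the transcription factor Irf1, which then takes part in a second wave. In tumour cells IFNγ is known for raising antigen presentation, attracting T cells through chemokines, and raising the checkpoint ligand PD-L1.

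Depth ran between 6046675 and 8370395 counts a library, and a single count equalled 0.123 to 0.162 CPM. In all, 12203 genes passed the filter on low counts. Changes are log2 fold changes of IFNγ over unstimulated cells, averaged over the 4 durations, with ± giving an approximate standard error. Genes are called where the Benjamini-Hochberg adjusted p of edgeR's quasi-likelihood test, taken over all 12203 genes, was under 0.05. Every adjusted p given comes from that test. Runs of 4 CPM values stand in the order 2, 6, 12 and 24 h. CPM is a count divided by the library's total, scaled to the same total for all libraries with TMM factors. It compares a gene between libraries and not different genes, since it is not scaled by transcript length.

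IFNγ changed the level of 2702 genes (22.1% of those tested), of which 1567 (12.8%) were higher and 1135 (9.30%) lower than in unstimulated cells. The higher genes moved further. At least 2-fold changes numbered 389 upwards (3.19%) and 62 downwards (0.508%), and changes of at least 8-fold 62 upwards and 0 downwards. Over all tested genes the median log2 fold change was -0.02. Counting genes that reached 5 CPM in 1 or both libraries of a duration, 208, 219, 310 and 468 were at least 2-fold higher with IFNγ than in unstimulated cells at 2, 6, 12 and 24 h, and 18, 42, 106 and 235 were at least 2-fold lower. IL-2, a cytokine given to the same cells, gave 3, 3, 8 and 4 genes higher and 10, 2, 2 and 3 lower by the same measure. Of the 389 genes, 224 (57.6%) had their largest ratio at 24 h and 59 at 2 h. The count of called genes depended on the durations included. It was 1551 without the 6 h libraries, 1046 without the 12 h libraries and 1756 without the 24 h libraries, with 68.7%, 77.6% and 61.7% of the calls upwards against 58.0% with all durations.

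The plot of called genes by list sets the gene groups side by side. The interferon-linked groups stand at the top, with calls almost wholly upwards, and the lipid synthesis and matrix groups at the bottom.

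**Figure D1:**
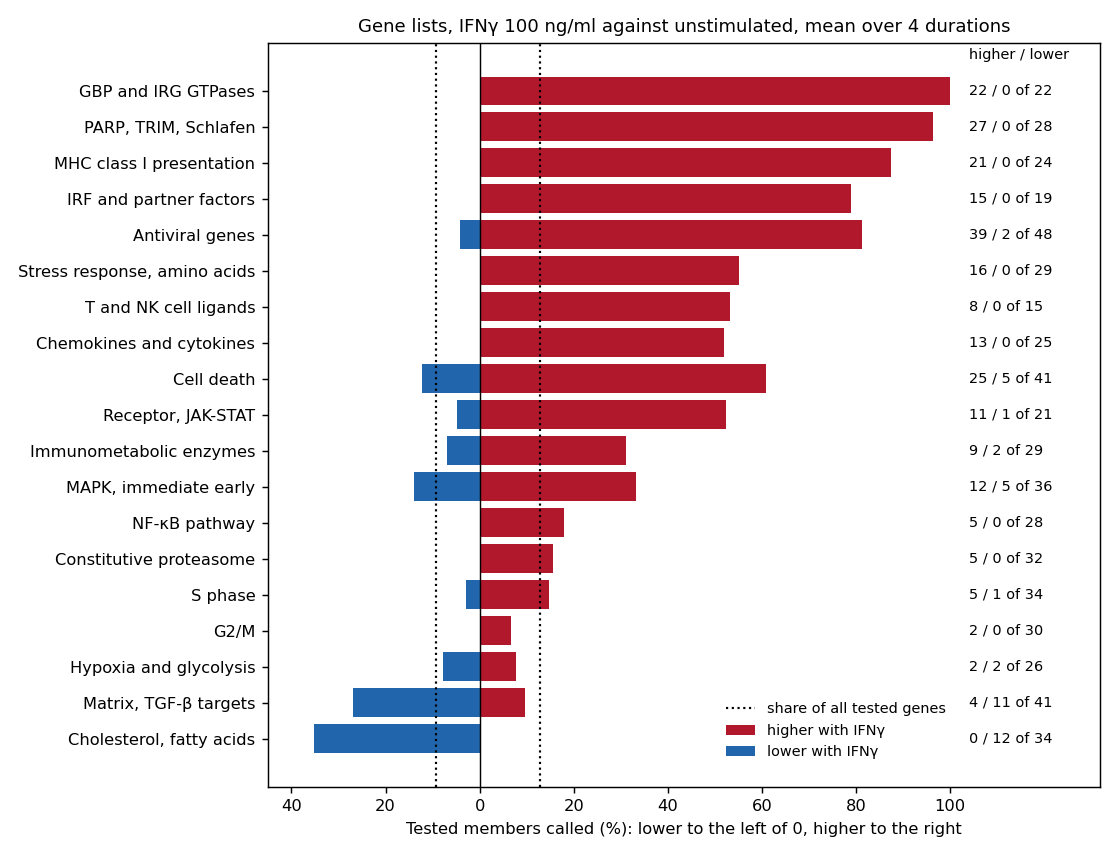
Share of tested members of 19 gene lists called higher (red, to the right of 0) or lower (blue, to the left of 0) with IFNγ than in unstimulated cells, in percent of tested members, with the counts printed at the right. Dotted lines mark the shares over all 12203 tested genes, 12.8% higher and 9.30% lower; all 22 GBP and IRG GTPases lie at the high end, and 0 of 34 cholesterol and fatty acid genes were called higher.

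The receptor chains themselves were not called. Several of the kinases, STATs and inhibitors below them were higher with IFNγ. Of 21 genes for the IFNγ receptor, its JAK-STAT pathway and its feedback, 11 were called higher and 1 lower, against 12.8% and 9.30% of all genes. The median log2 fold change was 0.18. Ifngr1 had 24.6, 20.2, 15.1 and 12.3 CPM with IFNγ and 26.7, 20.2, 13.2 and 15.9 CPM in unstimulated cells, and Ifngr2 30, 27, 22 and 23.3 CPM with IFNγ and 35.3, 33.8, 22.8 and 32.1 CPM in unstimulated cells. For both chains the groups overlapped. Jak2, the kinase bound to IFNGR2, had 107, 164, 179 and 154 CPM with IFNγ and 72, 83.5, 68 and 67.1 CPM in unstimulated cells. Every IFNγ library stood above every unstimulated one, and the change was 1.04 ± 0.12. Stat2, which acts in the type I pathway, changed by 0.95 ± 0.17 and Jak1 by 0.18 ± 0.05. Stat3, which many cytokines of the IL-6 family use, had 464, 275, 193 and 208 CPM with IFNγ and 80.9, 83, 90.2 and 81.9 CPM in unstimulated cells, highest at 2 h, with a change of 1.73 ± 0.26.

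Of 11 listed inhibitors of the pathway, 5 were called higher (Socs1, Socs3, Cish, Ptpn2 and Usp18), 1 was called lower and 5 were not called. Over all genes, 12.8% were called higher and 9.30% lower. Socs3, which blocks JAKs at receptors of the IL-6 family, had 86.1, 67.9, 54.4 and 61.6 CPM with IFNγ and 16.6, 15.6, 15.9 and 15 CPM in unstimulated cells. The unstimulated values stayed within a narrow band and all 4 IFNγ values lay above it, a change of 2.09 ± 0.16 (adjusted p = 1.92e-12). Socs1, the direct inhibitor of JAK1 and JAK2, had 32.1, 16.5, 17.6 and 22.3 CPM with IFNγ and 6.31, 7.03, 7.72 and 6.74 CPM in unstimulated cells, a change of 1.66 ± 0.27. Ptpn2, a phosphatase that acts on JAK1, changed by 0.46 ± 0.09, Cish, another SOCS family member, by 0.98 ± 0.32, and Usp18, which restrains signalling from the type I receptor, by 0.85 ± 0.24. Pias3, named as an inhibitor of activated STAT3, was the 1 member called lower, at -0.38 ± 0.11. Some of these calls were lost when the libraries of 1 duration were left out, here with the lowest and highest log2 fold change over the 4 such fits: Jak1 (without 6 h, 0.15 to 0.22), Usp18 (without 12 or 24 h, 0.70 to 0.97), Cish (without 6 or 12 h, 0.87 to 1.10) and Pias3 (without 6, 12 or 24 h, -0.48 to -0.30).

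**Figure D2:**
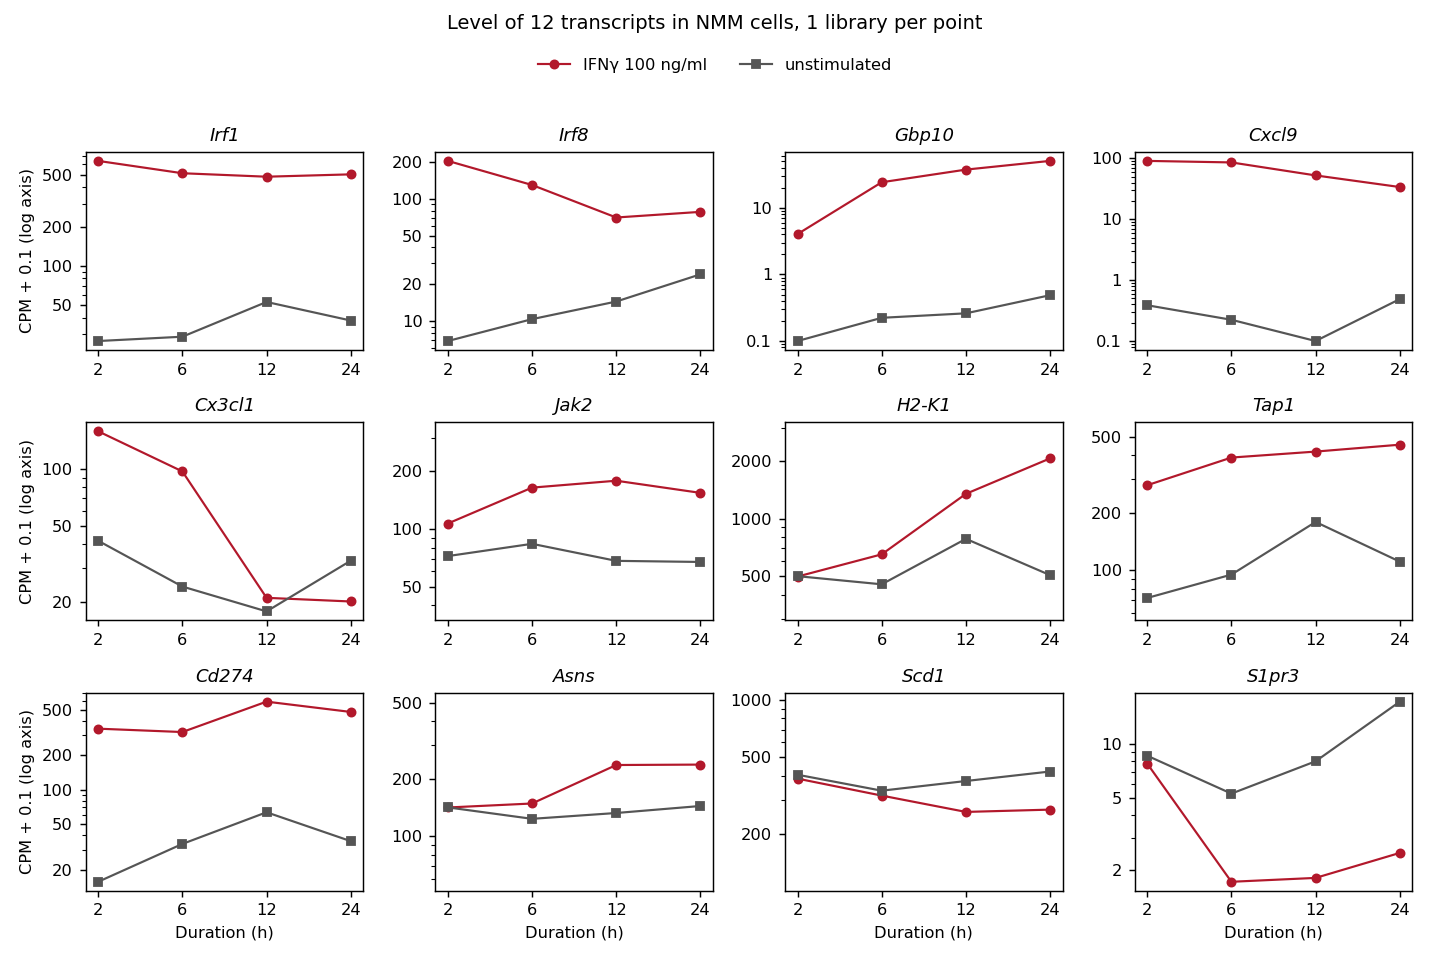
Levels of 12 transcripts with IFNγ (red circles) and in unstimulated cells (grey squares) at 2, 6, 12 and 24 h, as CPM plus 0.1 on a log axis whose range differs between panels, with 1 library per point. Irf1 and Cxcl9 were already high at 2 h, Gbp10 and H2-K1 climbed to 24 h, Irf8 and Cx3cl1 came down after 2 h, and S1pr3 fell behind the unstimulated cells from 6 h.

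Interferon regulatory factors and their partners were among the strongest responders, and several were near their top within 2 h. Of 19 tested members, 15 were called higher and 0 lower, against 12.8% and 9.30% of all genes. At least 2-fold higher were 10, against 3.19% of all genes, and the median was 1.05. Irf1, the first-wave factor, had 638, 513, 482 and 503 CPM with IFNγ and 26.4, 28.5, 52.7 and 38 CPM in unstimulated cells. The groups were far apart at all 4 durations, highest at 2 h, and the change was 3.89 ± 0.31 (adjusted p = 1.80e-11). Irf8, best known from myeloid and B cells, had 204, 129.5, 70.1 and 78 CPM with IFNγ and 6.75, 10.2, 14.3 and 24 CPM in unstimulated cells, a change of 3.08 ± 0.48. Its IFNγ values were lowest at 12 h and 24 h while the unstimulated values climbed, so that the log2 ratio was 4.86 at 2 h and 1.69 at 24 h. Batf2, a basic leucine zipper protein that pairs with IRF1, took the opposite course. It had 11.2, 38.8, 74.7 and 105 CPM with IFNγ and 0.718, 0.493, 0.482 and 0.13 CPM in unstimulated cells from 13 counts in all, and changed by 6.87 ± 0.46 (adjusted p = 2.18e-13). Irf5 also built up with time, with 3.08, 8.73, 28.4 and 39.7 CPM under IFNγ and 2.01, 2.96, 6.59 and 3.76 CPM without stimulation, a change of 2.28 ± 0.47.

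Both master regulators of antigen presentation responded, at very different levels. Nlrc5, which drives MHC class I genes, had 371, 352, 418 and 399 CPM with IFNγ and 55.7, 69.7, 142 and 84.2 CPM in unstimulated cells, a change of 2.21 ± 0.26. Ciita, the class II counterpart, reached 0.987, 3.39, 1.99 and 0.661 CPM with IFNγ, from 48 counts over the 4 libraries, against 2 counts in the unstimulated cells. The ratio of CPM was 24.1, with a 95% interval of 6.32 to 205 that covers counting error only. Irf2 changed by 0.91 ± 0.20, Irf7 by 0.73 ± 0.24, Irf9, the DNA-binding subunit of the type I interferon complex ISGF3, by 0.38 ± 0.07, and the nuclear body gene Sp110 by 3.03 ± 0.39. The call of Irf7 was lost in 3 of the 4 fits that left out a duration: Irf7 (without 6, 12 or 24 h, 0.44 to 0.88).

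Promoter sequence was set beside these responses, since GAS elements are known to carry the IFNγ signal and IRF proteins to bind ISRE elements. The 250 bases before the transcription start were taken from the RefSeq promoter table (build GRCm38.p6) for the factor genes Irf1 and Irf8, an adhesion gene, a GBP gene, a chemokine gene and the class I light chain. They cover both motifs and both early and slow courses and were chosen with the values and matches known; where the table lists several starts, a window with a match is shown. Capitals mark matches to the GAS letters TTCNNNGAA or to the ISRE-type letters, which are TTTC, 2 bases of any kind and TTTC, or on the other strand GAAA, 2 bases of any kind and GAAA. All other bases are in lower case, 5′ to 3′ on the strand of the gene.
Irf1: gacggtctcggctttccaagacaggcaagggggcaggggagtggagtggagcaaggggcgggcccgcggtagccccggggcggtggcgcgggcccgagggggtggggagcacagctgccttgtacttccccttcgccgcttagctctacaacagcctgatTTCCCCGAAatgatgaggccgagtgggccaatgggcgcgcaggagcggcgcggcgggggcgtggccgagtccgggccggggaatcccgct
Irf8: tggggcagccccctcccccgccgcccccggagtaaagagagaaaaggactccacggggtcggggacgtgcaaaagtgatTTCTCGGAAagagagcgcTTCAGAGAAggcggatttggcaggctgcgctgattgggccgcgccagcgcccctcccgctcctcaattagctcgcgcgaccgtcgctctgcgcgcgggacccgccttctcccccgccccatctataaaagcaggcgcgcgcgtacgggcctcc
Icam1: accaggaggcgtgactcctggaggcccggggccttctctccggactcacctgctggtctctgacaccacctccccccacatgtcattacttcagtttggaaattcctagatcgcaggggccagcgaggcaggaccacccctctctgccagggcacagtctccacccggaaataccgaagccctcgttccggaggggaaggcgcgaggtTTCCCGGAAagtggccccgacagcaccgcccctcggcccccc
Gbp7: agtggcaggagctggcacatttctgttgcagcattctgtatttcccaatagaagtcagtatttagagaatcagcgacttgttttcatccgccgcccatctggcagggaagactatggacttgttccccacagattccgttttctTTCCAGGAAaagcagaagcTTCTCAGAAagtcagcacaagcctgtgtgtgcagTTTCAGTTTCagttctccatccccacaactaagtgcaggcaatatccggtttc
Cxcl10: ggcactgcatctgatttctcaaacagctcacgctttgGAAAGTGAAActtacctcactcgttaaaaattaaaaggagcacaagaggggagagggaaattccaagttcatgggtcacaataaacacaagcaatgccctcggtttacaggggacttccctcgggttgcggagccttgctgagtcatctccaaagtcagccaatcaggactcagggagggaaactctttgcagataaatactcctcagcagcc
B2m: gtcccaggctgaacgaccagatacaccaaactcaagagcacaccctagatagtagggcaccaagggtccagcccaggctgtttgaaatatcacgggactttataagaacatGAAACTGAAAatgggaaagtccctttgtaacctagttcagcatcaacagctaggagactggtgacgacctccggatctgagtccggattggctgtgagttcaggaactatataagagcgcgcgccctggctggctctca

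These windows are at chr11:53769764-53770013 (plus strand) for Irf1, chr8:120736108-120736357 (plus strand) for Irf8, chr9:21015690-21015939 (plus strand) for Icam1, chr3:142530086-142530335 (plus strand) for Gbp7, chr5:92348890-92349139 (minus strand) for Cxcl10 and chr2:122147437-122147686 (plus strand) for B2m, upstream of the first exon. Irf1 held 1 GAS match, TTCCCCGAA, 90 to 82 bases before the start. Irf8 held 2 GAS matches, at 171 to 163 and 153 to 145 bases. Icam1 held TTCCCGGAA at 42 to 34 bases. Gbp7 held 2 GAS matches, at 106 to 98 and 87 to 79 bases, and the ISRE-type match TTTCAGTTTC at 53 to 44 bases. Cxcl10 and B2m held an ISRE-type match and no GAS match, GAAAGTGAAA at 213 to 204 bases and GAAACTGAAA at 139 to 130 bases. A match is a description of letters and not a site shown to be bound.

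Windows were found for 266 of the 389 genes called at least 2-fold higher and for 9114 of 12201 tested symbols. With fewer than 80% of the 389 matched, the check over that whole set is void, and the shares describe the matched genes only. A GAS match was present in 14.7% of the 266 and in 7.24% of all matched tested genes, and an ISRE-type match in 19.9% of the 266 and in 3.38% of all. Either motif was present in 30.8% of the 266, in 10.2% of all matched tested genes, and in 3 of 43 matched genes called at least 2-fold lower. Over all 27025 genes of the table the shares were 8.13% for GAS and 3.46% for ISRE-type letters. GAS letters are their own reverse complement in pattern, so each match counts once for both strands, and the ISRE-type letters were searched on both. The 2 motifs can overlap, and 10 of the 266 genes held both.

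All 22 tested genes of the guanylate-binding protein (GBP) and immunity-related GTPase (IRG) families rose at least 2-fold, against 3.19% of all genes, with a median log2 fold change of 3.10 and a range of 1.35 to 7.25. In all 22, every IFNγ library stood above every unstimulated one, against 5.82% of all tested genes. All 22 calls held with any 1 duration left out. These GTPases are known for coating and rupturing the vacuoles of intracellular pathogens. Some members of these families are near-identical copies, so that reads may have been split among them. The largest change was that of Gbp10, with 3.95, 24.2, 37.6 and 50.9 CPM with IFNγ and 0, 0.123, 0.161 and 0.389 CPM in unstimulated cells, 7.25 ± 0.46 (adjusted p = 1.43e-14). Gbp4 had 143, 556, 625 and 602 CPM with IFNγ and 9.76, 11.6, 21.9 and 10.2 CPM in unstimulated cells, a change of 5.12 ± 0.53. Gbp2 had 959, 2204, 2397 and 2221 CPM under IFNγ and 82.5, 120, 195 and 110.1 CPM without it, 3.94 ± 0.36. In both, the 6, 12 and 24 h IFNγ libraries lay close together and the 2 h library lay below them.

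The IRG genes named here were high by 2 h. Iigp1 had 2198, 2534, 1896 and 1686 CPM with IFNγ and 105, 178, 330.4 and 182 CPM in unstimulated cells, a change of 3.50 ± 0.43. Irgm1, a regulator of the other IRG proteins, had 2153, 1784, 1719 and 1480 CPM with IFNγ and 376, 438, 612 and 471 CPM in unstimulated cells, 1.92 ± 0.21, and Igtp had 803, 1133, 1019 and 937 CPM with IFNγ and 61.6, 83, 154 and 94.8 CPM in unstimulated cells, 3.37 ± 0.30. Irgm1 was highest at 2 h, and Iigp1 and Igtp at 6 h. Gbp5, Gbp7, Gbp11 and Gbp3 changed by 3.45 ± 0.34, 2.49 ± 0.29, 4.49 ± 0.45 and 1.82 ± 0.24, and the giant GTPase Gvin1, the smallest change of the list, by 1.35 ± 0.16. Gbp11 is annotated as a polymorphic pseudogene. The unstimulated cells were not flat over time. Of the 22 genes, 20 had their highest unstimulated level at 12 h, against 23.6% of all tested genes, and the list summed to 1170, 1503, 2550 and 1611 CPM in unstimulated cells, against 9255, 12930, 12837 and 11719 CPM with IFNγ. The IL-2 libraries showed the same course, with 19 of 22 highest at 12 h. The median ratio of the list was lowest at 12 h, with 2.93, 3.29, 2.44 and 3.26 on the log2 scale. What raised the 12 h level without IFNγ was not tested.

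RNA of genes for MHC class I presentation was higher on average for nearly every step, from peptide cutting to the surface molecule. Of 24 tested genes, 21 were called higher and 0 lower, against 12.8% and 9.30% of all genes. At least 2-fold higher were 18, against 3.19% of all genes, and the median log2 fold change was 1.51. The medians at single durations were 0.62, 1.23, 1.37 and 2.11. In edgeR's test, 0 of the 24 had a called difference between the late (12 and 24 h) and early (2 and 6 h) effect. Over all genes the share was 2.04%, so 0 of 24 lies near it. At an unadjusted p under 0.05 were 4 of the 24, and DESeq2 called 0. The heavy chain H2-K1 had 498, 651, 1350 and 2070 CPM with IFNγ and 500.5, 454, 785 and 507 CPM in unstimulated cells. The groups were level at 2 h, 24 h was far apart, and the change was 0.86 ± 0.28 (adjusted p = 0.0221). H2-D1 followed the same course, with 545, 656, 1177 and 1760 CPM under IFNγ, 538, 494, 777 and 546 CPM without it and a change of 0.71 ± 0.23. The non-classical H2-T23, which presents leader peptides to NK cell receptors, had 53.5, 82.9, 191 and 294 CPM with IFNγ and 36.6, 29, 68 and 47.3 CPM in unstimulated cells, 1.62 ± 0.27. H2-Q4 changed by 1.67 ± 0.32 and H2-Q7 by 2.51 ± 0.63. The H2 genes are close relatives whose reads may be split. B2m, the light chain shared by all of them, had 1706, 1720, 2239 and 2235 CPM with IFNγ and 1468, 1390, 1645 and 1416 CPM in unstimulated cells, 0.41 ± 0.09. Although small, this change set every IFNγ library above every unstimulated one. The calls of several heavy chains were lost with durations left out: H2-K1 (without 6, 12 or 24 h, 0.43 to 1.17), H2-D1 (without 6, 12 or 24 h, 0.34 to 0.94) and H2-Q7 (without 12 or 24 h, 1.50 to 2.98).

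Genes for peptide supply rose with the surface molecules. Psmb9, Psmb10 and Psmb8 encode the catalytic subunits that turn the proteasome into the immunoproteasome. Psmb9 had 26.1, 55.1, 101 and 114 CPM with IFNγ and 7.89, 6.66, 16.1 and 9.33 CPM in unstimulated cells, 2.84 ± 0.29, and Psmb8 and Psmb10 changed by 1.88 ± 0.27 and 2.07 ± 0.26. In all of them every IFNγ library exceeded every unstimulated one. The proteasome activator subunits Psme1 and Psme2 changed by 1.22 ± 0.15 and 1.44 ± 0.16. The 32 constitutive proteasome subunits moved little. Their median was 0.06, their range -0.11 to 0.26, and 5 of 32 were called higher, close to the 12.8% of all genes, the largest change being that of Psma4 at 0.26 ± 0.06. That count was 0 of 32 without the 12 h libraries. Tap1, 1 chain of the pump that carries peptides into the endoplasmic reticulum, had 278, 389, 418 and 454 CPM with IFNγ and 71.5, 94.8, 179 and 111 CPM in unstimulated cells, 1.81 ± 0.23. Tap2, its partner, changed by 2.16 ± 0.28, the peptide editor Tapbpl by 2.60 ± 0.22, tapasin (Tapbp) by 1.23 ± 0.22 and the trimming enzyme Erap1 by 1.28 ± 0.18. The general chaperones of the same pathway, Calr, Canx and Pdia3, were the 3 members not called. In unstimulated cells 23 of the 24 genes were highest at 12 h, and in IL-2 libraries 24 of 24.

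Most MHC class II genes were at or near 0 counts with and without IFNγ. Of 13 class II genes in the table, 10 did not pass the filter on low counts, and 0 of the 3 tested were called. Over the 4 libraries of a group, Cd74, the invariant chain, had 3 counts with IFNγ and 0 in unstimulated cells, H2-Ab1 had 4 with IFNγ and 0 in unstimulated cells, and H2-Aa had 1 with IFNγ and 1 in unstimulated cells. A count of 0 over a group allows up to 3 counts, so a difference in these genes was not detectable.

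Chemokines that draw T cells included some of the largest changes. Of 25 tested chemokine and cytokine genes, 13 were called higher and 0 lower, against 12.8% and 9.30% of all genes, with a median of 1.46. Cxcl9, a ligand of the chemokine receptor CXCR3 of T cells, had 90.8, 85.7, 52.4 and 33.7 CPM with IFNγ and 0.287, 0.123, 0 and 0.389 CPM in unstimulated cells, from 1890 and 6 counts. It was highest at 2 h, lowest at 24 h, and changed by 8.19 ± 0.75 (adjusted p = 5.82e-10). Cxcl10, another CXCR3 ligand, had a baseline of its own, with 1086, 903, 2487 and 2261 CPM under IFNγ and 148, 179, 435 and 171 CPM without it, 2.94 ± 0.41. Cxcl11, the third ligand, had 48 counts with IFNγ and 1 in unstimulated cells, a ratio of 48.2 with a 95% interval of 8.24 to 1940. The gene is annotated as a polymorphic pseudogene, so its RNA need not give a working protein. The monocyte chemokine Ccl2 had 116, 73.5, 289 and 316 CPM with IFNγ and 37.5, 15.9, 30.7 and 22.7 CPM in unstimulated cells, 2.91 ± 0.51, and its neighbour Ccl7 changed by 1.91 ± 0.48. Ccl5, a chemokine that attracts T cells, was late. It had 11.8, 9.7, 69.8 and 147 CPM with IFNγ and 13.3, 12.1, 25.1 and 15.2 CPM in unstimulated cells, with the 12 h and 24 h libraries alone clearly apart, and its mean change of 1.46 ± 0.64 was not called (adjusted p = 0.098).

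Cx3cl1, the membrane-bound chemokine fractalkine, had an early peak. Its levels were 158, 96.8, 20.9 and 20 CPM with IFNγ and 41.8, 23.9, 17.7 and 32.8 CPM in unstimulated cells, so that the 2 h and 6 h libraries were above and the 24 h library below its unstimulated counterpart. The mean change over the 4 durations was 1.05 ± 0.55 and was not called (adjusted p = 0.17). Cytokines that act on lymphocytes also rose. Il15 changed by 2.83 ± 0.50 and its presenting receptor Il15ra, with 7.4, 12.4, 11.2 and 8.86 CPM under IFNγ and 0.718, 1.11, 0.482 and 0.518 CPM without it, by 3.78 ± 0.42. Il18bp, the decoy that neutralises IL-18, had 4.81, 13.9, 35.1 and 41.1 CPM with IFNγ and 2.15, 2.47, 4.98 and 2.98 CPM in unstimulated cells, 2.81 ± 0.41. Il6 had 4.44, 2.59, 33.5 and 25.1 CPM with IFNγ and 2.15, 1.6, 3.06 and 1.17 CPM in unstimulated cells, highest at 12 h and 24 h, 2.92 ± 0.66. The macrophage growth factor Csf1 changed by 0.91 ± 0.16, while its level came down with time in both groups, and the death ligand Tnfsf10 (TRAIL) by 3.16 ± 0.58. With 1 duration left out, some calls were lost: Cxcl11 (without 12 or 24 h, 4.65 to 6.77), Ccl7 (without 12 h, 1.60 to 2.30) and Il6 (without 12 h, 2.36 to 3.37).

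The checkpoint ligand PD-L1, encoded by Cd274, was high from the first time point. It had 341, 319, 587 and 477 CPM with IFNγ and 15.6, 33.6, 63.5 and 35.5 CPM in unstimulated cells, a change of 3.62 ± 0.45 (adjusted p = 2.59e-07). Pdcd1lg2, which encodes PD-L2, had 1 count with IFNγ and 1 in unstimulated cells over the 4 libraries. Of 15 tested ligands of T and NK cells, 8 were called higher and 0 lower, against 12.8% and 9.30% of all genes. The median was 0.45. Cd47, the signal against engulfment, had 189, 271, 360 and 284 CPM with IFNγ and 109.6, 116, 165 and 119 CPM in unstimulated cells, 1.10 ± 0.15. The adhesion molecule Icam1 was scarce and early, with 4.44, 1.13, 0.71 and 0.132 CPM under IFNγ and 0.43, 0, 0.161 and 0 CPM without it, from 49 and 4 counts, 3.44 ± 0.67. Vcam1 changed by 1.35 ± 0.46, Lgals9, a ligand of TIM-3, by 0.69 ± 0.23, and Tnfrsf14, a ligand of BTLA, by 2.43 ± 0.68 from 45 counts with IFNγ and 8 in unstimulated cells. The last 3 calls did not hold without some durations: Vcam1 (without 6, 12 or 24 h, 1.23 to 1.52), Lgals9 (without 6, 12 or 24 h, 0.55 to 0.78) and Tnfrsf14 (without 6, 12 or 24 h, 2.21 to 2.63). The list had 4 calls in each of the fits that left out 6, 12 or 24 h.

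Genes usually linked to type I interferon and to virus restriction rose as well. Of 48 tested antiviral genes, 39 were called higher and 2 lower, against 12.8% and 9.30% of all genes. At least 2-fold higher were 22, against 3.19% of all genes. The median was 0.96, with medians of 0.75, 0.85, 0.86 and 1.27 at the single durations. The late minus early difference was called for 1 of the 48, which was smaller late, near the 2.04% of all genes. Without the 12 h libraries 28 of 48 were called higher. Mx1, a GTPase against influenza and related viruses, had 53.2, 82.8, 441 and 329 CPM with IFNγ and 17.6, 26, 81 and 33.8 CPM in unstimulated cells, 2.40 ± 0.48. Rsad2 (viperin) had 1141, 859, 3656 and 3267 CPM with IFNγ and 411, 323, 968 and 553 CPM in unstimulated cells, 1.91 ± 0.34, and Ifit2, which binds RNA, 607, 928, 2653 and 2268 CPM with IFNγ and 210.2, 217, 478 and 270 CPM in unstimulated cells, 2.36 ± 0.40. In all 3 the IFNγ level at 12 h and 24 h was well above that at 2 h and 6 h. The largest change in the list was that of Ifi205, a DNA-sensor family member, with 65.5, 81.1, 195 and 177 CPM under IFNγ and 4.3, 8.02, 17.2 and 8.81 CPM without it, 3.78 ± 0.37. Ifi27, an interferon-inducible gene, was called lower. Isg15, the ubiquitin-like modifier, changed by 0.61 ± 0.17 and Oasl1 by 1.44 ± 0.42. Among the transmembrane inhibitors of virus entry, Ifitm2 was called lower, at -0.43 ± 0.12, and Ifitm1, with 103, 72.1, 43.4 and 38.1 CPM under IFNγ and 106, 97.7, 90.8 and 113 CPM without it, had a mean change of -0.73 ± 0.28 (adjusted p = 0.0547, not called). Calls lost with a duration left out were Isg15 (without 12 h, 0.46 to 0.71), Oasl1 (without 12 or 24 h, 0.90 to 1.82) and Ifitm2 (without 6 or 12 h, -0.54 to -0.36). In unstimulated cells, 43 of the 48 genes had their highest level at 12 h, and in IL-2 libraries also 43 of 48. Summed, the list had 15163, 15851, 30923 and 28232 CPM with IFNγ and 8947, 9318, 15204 and 11147 CPM in unstimulated cells.

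The PARP, TRIM and Schlafen families linked to interferon rose almost as a block, with 27 of 28 called higher, against 12.8% of all genes. At least 2-fold higher were 16, against 3.19% of all genes, and the median was 1.03. The call count was 26 or 27 with any duration left out. Parp14, an ADP-ribosyltransferase, had 1140, 1076, 1343 and 1095 CPM with IFNγ and 191, 267, 511 and 296 CPM in unstimulated cells, 1.97 ± 0.28. Slfn4, a myeloid-associated Schlafen gene, came up at 12 h, with 0.864, 1.62, 32.8 and 23.4 CPM under IFNγ and 0.43, 0.493, 2.73 and 0.518 CPM without it, 3.72 ± 0.62, and Slfn1 had 19 counts with IFNγ and 1 in unstimulated cells, a ratio of 19.1 with a 95% interval of 3.03 to 792. Trim30c and Trim30b, found by the size of their change, changed by 4.19 ± 0.79 and 4.15 ± 0.70. Their log2 ratios climbed from 1.29 and 0.89 at 2 h to 4.51 and 4.20 at 24 h. Of the 28 listed genes, 0 had a called late minus early difference in edgeR's test, near the 2.04% of all genes. At an unadjusted p under 0.05 was 1 of the 28, and DESeq2 called 0. All 28 genes were highest at 12 h in unstimulated cells. Leaving out 24 h ended 1 of these calls: Slfn1 (without 24 h, 2.25 to 5.36).

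Of 41 cell death genes, 25 were called higher, against 12.8% of all genes, and 5 lower, near the 9.30% of all genes. Inflammatory caspases and their target rose together. Casp1 had 18.9, 31.8, 31.1 and 37.9 CPM with IFNγ and 8.32, 6.17, 6.43 and 8.81 CPM in unstimulated cells, 1.98 ± 0.25, and Casp4, which senses bacterial lipopolysaccharide in the cytosol, 25.9, 18.4, 33.4 and 37.5 CPM with IFNγ and 4.88, 3.7, 6.27 and 4.02 CPM in unstimulated cells, 2.62 ± 0.31. For both, all IFNγ libraries were above all unstimulated ones. Gsdmd, the pore protein they cleave, changed by 1.45 ± 0.32, and Casp8, of the apoptotic pathway, by 0.77 ± 0.11. The necroptosis genes Zbp1, a nucleic acid sensor, and Mlkl, the executioner, changed by 1.89 ± 0.32 and 1.24 ± 0.18. The death receptor Fas was highest at 2 h, with 6.29, 1.94, 1.42 and 1.32 CPM under IFNγ and 0.861, 1.23, 0.482 and 0.648 CPM without it, 1.65 ± 0.43. Apol6, an apolipoprotein L gene, had 21.6, 34.9, 32.2 and 34.5 CPM with IFNγ and 0.287, 0.37, 0.482 and 0.13 CPM in unstimulated cells, from 879 and 9 counts, 6.57 ± 0.42 (adjusted p = 1.70e-14). On the side of decrease, the survival gene Bcl2 had 23.3, 23.8, 15.5 and 11.5 CPM with IFNγ and 25.8, 32.5, 26.5 and 24.5 CPM in unstimulated cells, -0.59 ± 0.17, and Bmf, which opposes it, 4.56, 1.29, 1.7 and 1.45 CPM with IFNγ and 7.17, 4.07, 4.66 and 5.7 CPM in unstimulated cells, -1.32 ± 0.30. With a duration left out, calls were lost for Gsdmd (without 12 h, 1.30 to 1.68), Fas (without 2 h, 0.95 to 2.06) and Bcl2 (without 6, 12 or 24 h, -0.74 to -0.44).

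Protease inhibitors and enzymes of defence metabolism included several genes that were silent without IFNγ. Serpina3f, a serine protease inhibitor, had 2.71, 7.76, 7.52 and 8.99 CPM with IFNγ, from 191 counts, and 0 counts in all 4 unstimulated libraries. Against the limit of 3 counts that a total of 0 allows, it was at least 63.9-fold higher. Serpina3g had 21 counts with IFNγ and 1 in unstimulated cells, a ratio of 21.1 with a 95% interval of 3.39 to 872, and Serpinb9, the inhibitor of granzyme B, changed by 1.61 ± 0.25. Serpine2 was lower, with 210.3, 162, 113 and 80.8 CPM under IFNγ and 240.4, 204, 192 and 198 CPM without it, -0.60 ± 0.21. Ido1, which degrades tryptophan, had 32 counts with IFNγ and 0 in unstimulated cells, at least 10.7-fold higher, and its relative Ido2 changed by 2.95 ± 0.41. Wars, the tryptophan tRNA ligase, had 207, 411, 284 and 255 CPM with IFNγ and 89.8, 100.2, 89.5 and 84.5 CPM in unstimulated cells, 1.64 ± 0.14. Acod1, which makes itaconate and is best known from macrophages, had 8.39, 6.79, 30.5 and 46 CPM with IFNγ and 1.44, 1.23, 1.12 and 1.55 CPM in unstimulated cells, 3.96 ± 0.82, and the uridine phosphorylase Upp1 changed by 1.41 ± 0.14. For Wars, Acod1 and Upp1 the groups did not overlap. Of the 29 tested enzymes, 9 were called higher and 2 lower, against 12.8% and 9.30% of all genes. Among the lower ones was the iron exporter Slc40a1, at -1.76 ± 0.44 from 11 counts with IFNγ and 37 in unstimulated cells. Calls lost with a duration left out were Serpina3g (without 6 h, 2.84 to 5.97), Serpine2 (without 6, 12 or 24 h, -0.76 to -0.41) and Slc40a1 (without 12 or 24 h, -2.25 to -1.50).

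Complement and surface genes rose in part. Of 16 tested complement and coagulation genes, 4 were called higher (C1s1, C1ra, C4b and F3) and 0 lower, against 12.8% and 9.30% of all genes. C1s1 and C4b, of the classical pathway, changed by 3.37 ± 0.72 and 3.33 ± 0.57, and F3, the tissue factor that starts coagulation, had 114, 85.8, 34.6 and 20.6 CPM with IFNγ and 57.7, 26.2, 11.7 and 10.2 CPM in unstimulated cells, 1.32 ± 0.17. F3 declined with time in both groups and was higher with IFNγ at each duration. Of 13 tested Ly6 and other interferon-linked surface genes, 6 were called higher and 2 lower, against 12.8% and 9.30% of all genes. Their log2 fold changes ran from -1.09 to 2.81, with a median of 0.45. Ly6a (Sca-1), a mouse surface protein used as a stem cell marker, had 46.4, 121, 279 and 433 CPM with IFNγ and 20.2, 15.6, 53.5 and 21.5 CPM in unstimulated cells, 2.81 ± 0.47, and Ly6c1, known from monocytes and endothelium, 7.4, 15.7, 28.8 and 51 CPM with IFNγ and 3.73, 4.07, 3.22 and 2.2 CPM in unstimulated cells, 2.77 ± 0.46. Mpeg1, the macrophage pore protein perforin-2, had 48, 177, 455 and 427 CPM with IFNγ and 8.04, 10.5, 33.4 and 8.55 CPM in unstimulated cells, 4.15 ± 0.48 (adjusted p = 9.27e-08), and the antibody receptor Fcgr4 changed by 2.78 ± 0.55 from 45 counts with IFNγ and 6 in unstimulated cells. Beside these genes known from macrophages, the 16 macrophage and dendritic cell markers summed to 34.6 to 54.4 CPM with IFNγ and 52.1 to 58.1 CPM in unstimulated cells, and of the 3 tested 1 was called, Cd14, which was lower with 49.2, 35.6, 27 and 42 CPM under IFNγ, 54.2, 49.4, 46.8 and 51.8 CPM without it and a change of -0.42 ± 0.15. That call did not hold when durations were left out, Cd14 (without 6, 12 or 24 h, -0.51 to -0.30). Csf1r, Adgre1, C1qa, C1qb and C1qc did not pass the filter.

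Whether the response itself changed with time was asked by comparing the mean effect at 12 h and 24 h with that at 2 h and 6 h. The difference was called for 249 genes (2.04%), 94 with a larger effect late (0.770%) and 155 with a smaller or more negative one (1.27%). The test leans on single durations. Without the 2 h libraries 15 genes were called, without the 24 h libraries 2, without the 6 h libraries 417 and without the 12 h libraries 243. Of the 43 called genes named here, 0 kept the call in all 4 such fits, and all 43 kept their direction. Each was called in the fit with all durations and its levels are given as measured.

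The plot of early against late effects shows both departures from the diagonal.

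**Figure D3:**
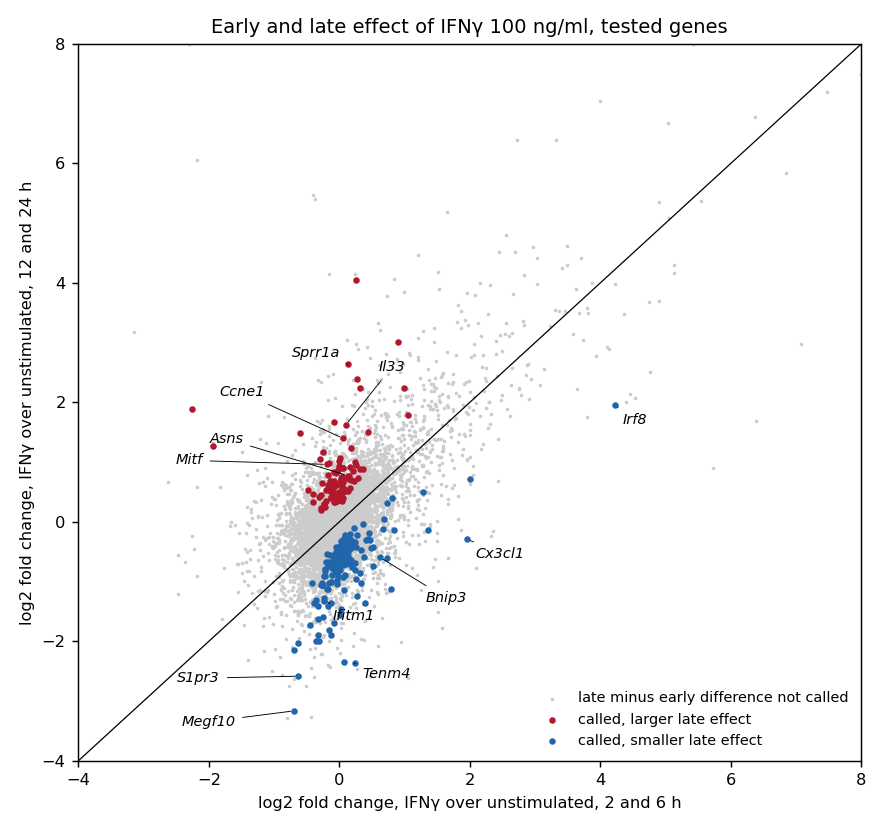
Log2 fold change of IFNγ over unstimulated cells at 12 and 24 h (vertical axis) against that at 2 and 6 h (horizontal axis) for the 12203 tested genes, 1 point per gene. Red points are the 94 genes with a called larger late effect, blue points the 155 with a called smaller one, grey points are not called, and points beyond the axes are drawn at their edge. Irf8, Cx3cl1, S1pr3 and Megf10 lie below the diagonal, and Il33 and Sprr1a lie above it.

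A few induced genes faded. The difference late minus early was -2.25 ± 0.32 for Cx3cl1 (adjusted p = 6.75e-04) and -2.27 ± 0.47 for Irf8 (adjusted p = 0.0189), whose levels are given above. Others appeared late. Il33, an alarmin of the IL-1 family, had 96.3, 63, 326 and 432 CPM with IFNγ and 84.7, 63.2, 87.8 and 163 CPM in unstimulated cells, level at 2 h and 6 h and apart at 12 h and 24 h, a difference of 1.52 ± 0.32. Sprr1a, a small proline-rich protein of epithelia, had 12.1, 12.6, 41.2 and 61.1 CPM with IFNγ and 12.2, 10.6, 13 and 4.41 CPM in unstimulated cells, 2.51 ± 0.64. Prdm9, a histone methyltransferase known from meiosis, had 3.33, 3.23, 17.7 and 23 CPM with IFNγ and 2.15, 1.48, 2.73 and 2.33 CPM in unstimulated cells, 2.13 ± 0.52, and Lgals3, encoding galectin-3, 152, 175, 205 and 236 CPM with IFNγ and 183, 182, 136 and 92.1 CPM in unstimulated cells, 1.15 ± 0.28. For Lgals3 the unstimulated level came down while the IFNγ level went up. The NF-κB kinase adaptor Ripk2, higher with IFNγ at all durations with 40.1, 39.8, 56.6 and 48.5 CPM under IFNγ and 20.4, 18, 15.9 and 14.5 CPM without it, had a difference of 0.72 ± 0.18. Batf2, Irf5 and H2-K1 also climbed. Their differences of 2.79 ± 1.43, 1.56 ± 0.76 and 1.21 ± 0.43 were not called (adjusted p = 0.343, 0.318 and 0.156). The lowest and highest differences with 1 duration left out are given for Cx3cl1 (without 2 h, -2.68 to -1.72), Irf8 (without 2 or 24 h, -2.96 to -1.70), Il33 (without 2 or 6 h, 1.30 to 1.80), Sprr1a (without 2, 6 or 24 h, 1.54 to 3.65), Prdm9 (without 2, 12 or 24 h, 1.81 to 2.40), Lgals3 (without 2, 6 or 24 h, 0.76 to 1.51) and Ripk2 (without 2, 12 or 24 h, 0.65 to 0.81).

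Genes of the integrated stress response and of amino acid supply came up late as a group. Of 29 tested, 16 were called higher and 0 lower on average, against 12.8% and 9.30% of all genes. A called larger late effect was found for 10 of the 29, against 0.770% of all genes. The median log2 ratios of the list were -0.06, 0.20, 0.53 and 0.66 at the 4 durations. Asns, which makes asparagine, had 142, 149, 236 and 238 CPM with IFNγ and 142, 124, 133 and 144 CPM in unstimulated cells, level at 2 h and apart at 12 h and 24 h. Its mean change was 0.46 ± 0.12 and its difference late minus early 0.64 ± 0.11 (adjusted p = 0.00359). Atf4, the transcription factor at the centre of this response, had 301, 345, 440.4 and 435 CPM with IFNγ and 309.8, 269, 318 and 307 CPM in unstimulated cells, 0.33 ± 0.10, and its targets Ddit3, Trib3 and Chac1 changed by 0.82 ± 0.29, 0.95 ± 0.23 and 0.81 ± 0.26. The 2 chains of the amino acid carrier, Slc7a5 and Slc3a2, had late minus early differences of 0.70 ± 0.16 and 0.71 ± 0.14, and the glycine carrier Slc6a9 0.84 ± 0.23. The tRNA ligases Cars, Nars, Sars and Aars had differences of 0.52 ± 0.11, 0.40 ± 0.09, 0.46 ± 0.10 and 0.51 ± 0.13, and the serine and glycine enzymes Psph and Shmt2 0.74 ± 0.19 and 0.52 ± 0.13. Each late minus early difference given in this paragraph lost its call without the 2 h libraries and also without the 24 h libraries. That of Psph lost it in all 4 fits that left out a duration. The count of 16 was 7 without the 6 h libraries, 1 without the 12 h libraries and 4 without the 24 h libraries, and it was 8 with the 2 compared groups fitted alone. Mean changes whose call was lost are those of Asns (without 12 or 24 h, 0.34 to 0.62), Atf4 (without 6, 12 or 24 h, 0.27 to 0.45), Ddit3 (without 6, 12 or 24 h, 0.44 to 1.02) and Chac1 (without 6, 12 or 24 h, 0.51 to 1.13).

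**Figure D4:**
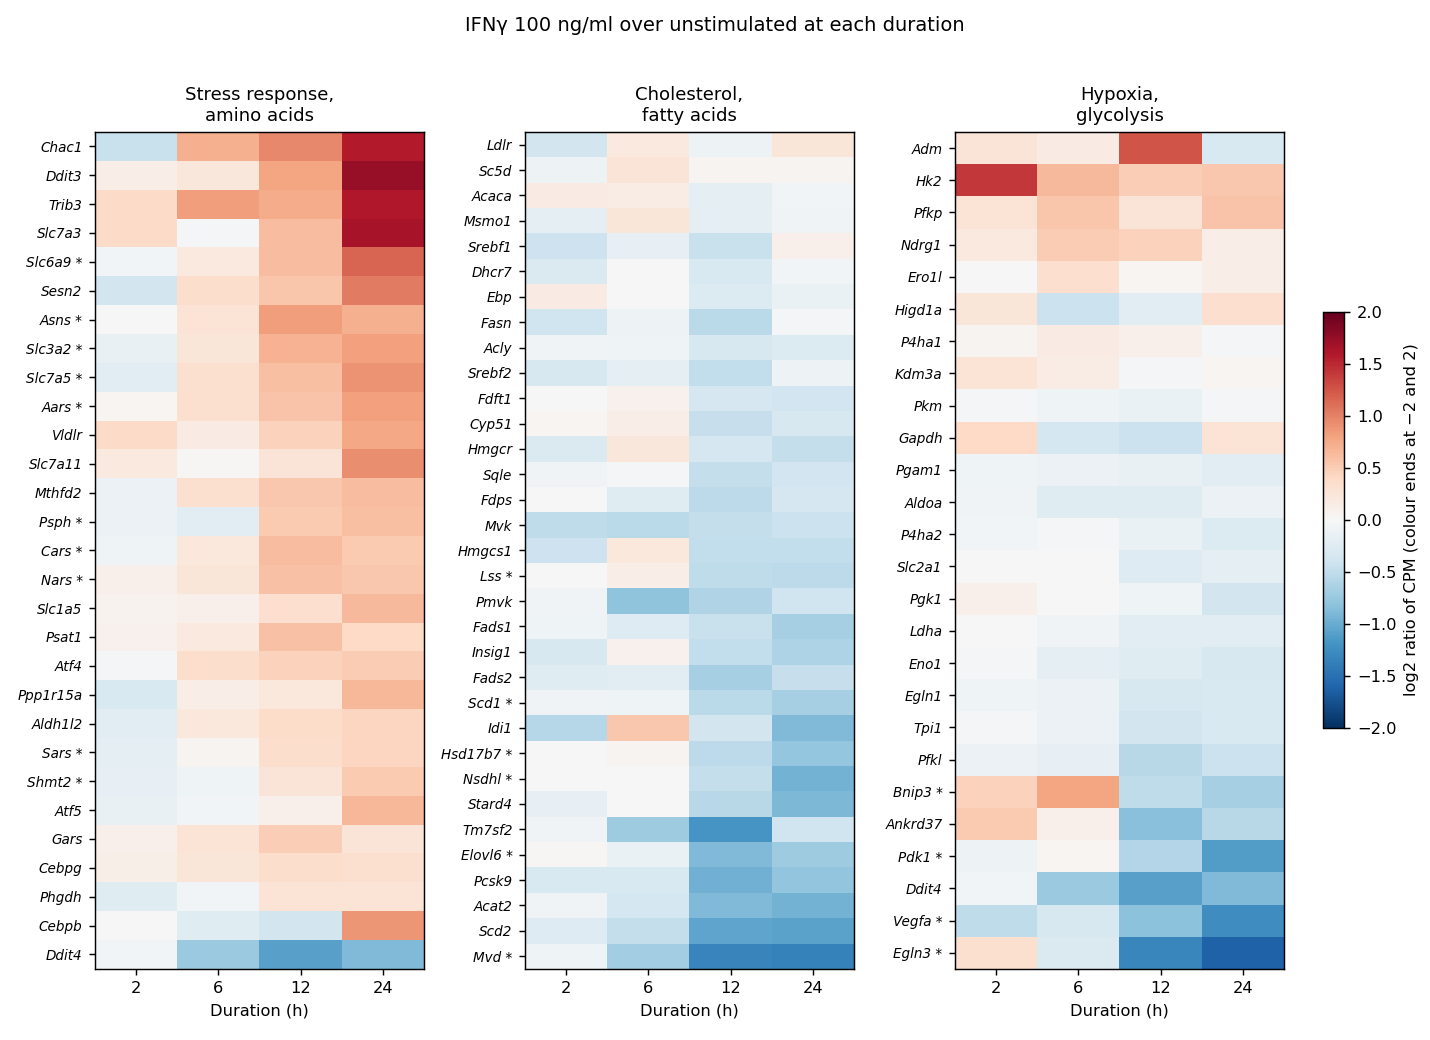
Log2 ratio of CPM, IFNγ over unstimulated cells, at 2, 6, 12 and 24 h for members of 3 lists, red for higher and blue for lower with IFNγ, sorted by the late effect; an asterisk marks a called late minus early difference. The stress response and amino acid genes mostly turn red at 12 and 24 h, the cholesterol and fatty acid genes mostly blue, and the hypoxia and glycolysis list is mixed, with Egln3, Vegfa, Pdk1 and Bnip3 blue late.

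Lipid synthesis genes leaned downwards over the same hours. Of 34 tested cholesterol and fatty acid genes, 0 were called higher and 12 lower, against 9.30% of all genes, with a median of -0.29 and medians of -0.09, -0.06, -0.49 and -0.44 at the single durations, and 7 had a called more negative late effect, against 1.27% of all genes. Mvd, an enzyme of the mevalonate pathway, had 22, 18.9, 14.1 and 13.2 CPM with IFNγ and 23.2, 30.7, 35.5 and 34.2 CPM in unstimulated cells, -0.85 ± 0.22 on average and -0.97 ± 0.21 late minus early. Scd2, a fatty acid desaturase, had 859, 544, 553 and 595 CPM with IFNγ and 1025, 761, 1155 and 1255 CPM in unstimulated cells, -0.70 ± 0.16, and its relative Scd1 387, 316, 259 and 267 CPM with IFNγ and 406, 335, 376 and 422 CPM in unstimulated cells, -0.52 ± 0.13 late minus early. The sterol enzymes Lss, Nsdhl and Hsd17b7 had differences of -0.57 ± 0.13, -0.71 ± 0.17 and -0.68 ± 0.14, and the fatty acid elongase Elovl6 -0.74 ± 0.17. In the 7 genes named in this paragraph the ratio was lower at 12 h and 24 h than at 2 h and 6 h. For all but Scd2 a called difference is given, so for them this largely restates the call. The count of 12 was 8 without the 6 h libraries, 2 without the 12 h libraries and 5 without the 24 h libraries. With a duration left out, the mean change lost its call for Mvd (without 12 or 24 h, -1.12 to -0.68) and Scd2 (without 12 or 24 h, -0.84 to -0.57).

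Genes of the hypoxia and glycolysis list changed little on average, with 2 of 26 called higher and 2 lower, against 12.8% and 9.30% of all genes, and 4 had a called negative late minus early difference, against 1.27% of all genes. Egln3, an oxygen-sensing prolyl hydroxylase, had 76.4, 52, 33.5 and 32 CPM with IFNγ and 60.9, 63.9, 83.1 and 98.2 CPM in unstimulated cells, -1.50 ± 0.22 (adjusted p = 6.75e-04). The unstimulated level climbed with time and the IFNγ level declined. Vegfa, the vascular growth factor, had 331, 190.2, 186 and 169.7 CPM with IFNγ and 469, 237, 327 and 400.2 CPM in unstimulated cells, a mean change of -0.69 ± 0.13 and a difference of -0.60 ± 0.16. Bnip3, a mitophagy receptor, had 76.5, 61.6, 41.6 and 31.9 CPM with IFNγ and 55.7, 35.4, 59.5 and 50.7 CPM in unstimulated cells, higher with IFNγ early and lower late, -1.22 ± 0.26, and Pdk1, which restrains pyruvate oxidation, had a difference of -0.81 ± 0.20.

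Cell cycle genes as lists stayed near the background. The S phase list had 5 genes called higher and 1 lower out of 34, and the G2/M list 2 higher and 0 lower out of 30, against 12.8% and 9.30% of all genes. Single members rose late. Ccne1, the cyclin that drives entry into S phase, had 32.1, 49.1, 77.1 and 82.8 CPM with IFNγ and 34.6, 42.7, 33.8 and 27.6 CPM in unstimulated cells, 1.34 ± 0.21 late minus early (adjusted p = 7.44e-04). Foxm1, a mitotic transcription factor, had a difference of 0.48 ± 0.11. Melk, named above, had 36.4, 53.2, 128 and 119.8 CPM with IFNγ and 28.1, 37.8, 45.7 and 41.6 CPM in unstimulated cells, 1.07 ± 0.26. Mitf, the master factor of the melanocyte lineage, was low, with 5.06, 6.46, 11.2 and 12.8 CPM under IFNγ and 6.75, 6.17, 4.66 and 7.64 CPM without it, and had a difference of 1.15 ± 0.32 (adjusted p = 0.0483). The pigment genes Tyr, Dct and Mlana had 0 counts throughout. Sox2 had a difference of 0.73 ± 0.20.

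Genes lower with IFNγ were fewer and changed less. Of the 62 called at least 2-fold lower, 35 had their most negative ratio at 24 h and 29 were past 2-fold at 6 h. A called more negative late effect was found for 4 of the 62, against 1.27% of all genes. The median ratios were -0.65, -0.94, -1.21 and -1.48 at the 4 durations. Megf10, an engulfment receptor, had 57, 26.8, 6.67 and 6.74 CPM with IFNγ and 79.7, 51.7, 55.1 and 65 CPM in unstimulated cells, -1.54 ± 0.47 on average and -2.47 ± 0.59 late minus early. S1pr3, a receptor for sphingosine 1-phosphate, had 7.65, 1.62, 1.7 and 2.38 CPM with IFNγ and 8.47, 5.18, 7.88 and 17 CPM in unstimulated cells, -1.54 ± 0.40 on average and -1.96 ± 0.49 late minus early. In both, the gap was smallest at 2 h. Cxcr4, the receptor of CXCL12, had 5.67, 4.69, 7.81 and 11.5 CPM with IFNγ and 6.75, 9.13, 26.9 and 48.5 CPM in unstimulated cells, -1.47 ± 0.29 (adjusted p = 3.48e-04). Here the unstimulated level climbed with time and the IFNγ level hardly did. Igfbp5, a binding protein of insulin-like growth factors, had 322, 186, 50.7 and 24.2 CPM with IFNγ and 396, 346, 183 and 258 CPM in unstimulated cells, -1.39 ± 0.48, and Tert, the telomerase catalytic subunit, 0.37, 1.29, 0.568 and 0.793 CPM with IFNγ and 1.87, 1.73, 1.77 and 2.85 CPM in unstimulated cells, from 21 and 60 counts, -1.47 ± 0.33. The small GTPase Rem2 and the imprinted H19 changed by -1.53 ± 0.40 and -1.45 ± 0.46.

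Further genes whose IFNγ effect turned more negative were Tenm4, a teneurin, with 25.3, 5.98, 5.54 and 3.97 CPM under IFNγ and 14.5, 10.9, 19.8 and 29.4 CPM without it (-2.60 ± 0.53 late minus early), and Hgf, hepatocyte growth factor, with 15.9, 10.7, 6.1 and 6.21 CPM under IFNγ and 8.75, 6.42, 12.5 and 14.4 CPM without it (-1.92 ± 0.45). Both were higher with IFNγ at 2 h and lower at 12 h and 24 h. Dock8, an exchange factor for CDC42, had 103, 74.3, 31.9 and 20.8 CPM with IFNγ and 126, 93.9, 97.3 and 113 CPM in unstimulated cells (-1.68 ± 0.37), the xylosyltransferase Gxylt2 56, 53.5, 18.6 and 6.08 CPM with IFNγ and 65.7, 72.4, 43.9 and 44.2 CPM in unstimulated cells (-1.56 ± 0.30), and Ifitm1 and Serpine2, described above, had differences of -1.09 ± 0.27 and -0.76 ± 0.20. Mean changes of named lower genes that lost their call with a duration left out were Megf10 (without 6, 12 or 24 h, -2.14 to -1.18), S1pr3 (without 6, 12 or 24 h, -2.36 to -1.04), Igfbp5 (without 6, 12 or 24 h, -1.83 to -0.91), Rem2 (without 6, 12 or 24 h, -2.10 to -1.26) and H19 (without 6, 12 or 24 h, -1.98 to -1.06).

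Matrix genes leaned downwards, with a median of -0.14. Of 41 collagens, laminins, integrins and TGF-β targets, 11 were called lower and 4 higher, against 9.30% and 12.8% of all genes. Col4a1 and Col4a2, the chains of basement membrane collagen, had 863, 817, 443 and 402 CPM and 361, 316, 174 and 165 CPM with IFNγ, against 1080, 994, 732 and 715 CPM and 487, 443, 325 and 318 CPM in unstimulated cells, with changes of -0.54 ± 0.14 and -0.70 ± 0.19. The levels of both came down with time in both groups, and were lower with IFNγ at each duration. Tgfb1 had 45.3, 32.2, 23.7 and 36.6 CPM with IFNγ and 63.1, 59.6, 47.6 and 53.2 CPM in unstimulated cells, -0.71 ± 0.13, with no overlap between the groups, and the integrin Itgb5 changed by -0.61 ± 0.13. The proteases Mmp2 and Mmp14 and the laminin Lama5 had late minus early differences of -0.57 ± 0.14, -0.36 ± 0.10 and -0.80 ± 0.21. Against this trend, Col6a3 changed by 2.08 ± 0.45 from 93 counts with IFNγ and 20 in unstimulated cells, and Tnc (tenascin C), of the dedifferentiated list, by 0.63 ± 0.17. The fibroblast markers, given at the start, were lower with IFNγ in sum, and their part in this result was not tested. The 11 calls were 5, 3 and 6 without the 6, 12 and 24 h libraries, and calls were lost for Col4a1 (without 12 h, -0.62 to -0.44), Col4a2 (without 12 h, -0.78 to -0.60), Col6a3 (without 12 h, 1.70 to 2.47) and Tnc (without 6, 12 or 24 h, 0.52 to 0.81).

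The MAPK pathway, which mutated NRAS feeds, had 12 of 36 output and immediate early genes called higher, against 12.8% of all genes, and 5 lower, near the 9.30% of all genes. Atf3, an immediate early and stress gene, had 19.2, 24.7, 40.6 and 44.1 CPM with IFNγ and 9.33, 6.42, 10.3 and 7.77 CPM in unstimulated cells, 1.90 ± 0.22, and Egr2 11.8, 16.2, 5.82 and 7.54 CPM with IFNγ and 4.74, 2.34, 2.09 and 2.46 CPM in unstimulated cells, 1.84 ± 0.33. Both stood clear of the unstimulated libraries at every duration. Spry1, a feedback inhibitor of the pathway, had 30, 26.5, 15.5 and 14.3 CPM with IFNγ and 41.6, 46.8, 32.5 and 56.8 CPM in unstimulated cells, -1.05 ± 0.27, and the pseudokinase Trib2 46.4, 31.7, 25.6 and 31.9 CPM with IFNγ and 63.6, 57.7, 68 and 70 CPM in unstimulated cells, -0.93 ± 0.20. For both, all IFNγ libraries were below all unstimulated ones, which was so for 3.61% of all tested genes, and both calls were lost without 12 h: Spry1 (without 12 h, -1.28 to -0.75) and Trib2 (without 12 h, -1.13 to -0.78).

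IFNγ was finally set directly against IFNα1, without the unstimulated libraries, to ask where the responses to both interferon types differ. Type I interferon acts through another receptor and mainly through ISGF3, a complex that holds STAT2 and IRF9 and binds ISRE elements. The doses, 100 ng/ml and 5000 U/ml, are in different units and were not matched for effect. The 2 conditions differed in 1964 genes (16.1%), 1157 (9.48%) higher with IFNγ and 807 (6.61%) higher with IFNα1. That total was 1066, 318 and 921 without the 6, 12 and 24 h libraries. At least 2-fold differences numbered 113 (0.926%) towards IFNγ and 60 (0.492%) towards IFNα1.

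Most GTPases and some transcription factors were higher with IFNγ than with IFNα1. Of the 22 GBP and IRG genes, 16 were called higher with IFNγ than with IFNα1 and 0 lower, against 9.48% of all genes, with a median difference of 1.13. Gbp10 had 3.95, 24.2, 37.6 and 50.9 CPM with IFNγ and 0.876, 2.84, 2.53 and 3.96 CPM with IFNα1 (3.45 ± 0.29), and Gbp4 and Gbp2 differed by 2.74 ± 0.45 and 1.50 ± 0.33. Of the 19 IRF and partner factors, 5 were called higher with IFNγ and 0 with IFNα1, against 9.48% and 6.61% of all genes. Their median difference was -0.01. Irf1 had 638, 513, 482 and 503 CPM with IFNγ and 254, 113, 108 and 91.2 CPM with IFNα1 (1.95 ± 0.27, adjusted p = 7.93e-06). The IFNα1 level was highest at 2 h, and lower from 6 h on, whereas the IFNγ level stayed up. Irf8 had 204, 129.5, 70.1 and 78 CPM with IFNγ and 22.5, 11, 12.8 and 14.5 CPM with IFNα1 (2.98 ± 0.47), and Batf2 11.2, 38.8, 74.7 and 105 CPM with IFNγ and 2.34, 2.73, 2.13 and 1.86 CPM with IFNα1 (4.56 ± 0.35). Ciita had 48 counts with IFNγ and 0 with IFNα1, and Icam1 49 with IFNγ and 1 with IFNα1. The chemokine Cxcl9 had 90.8, 85.7, 52.4 and 33.7 CPM with IFNγ and 2.34, 3.29, 1.06 and 0.62 CPM with IFNα1 (5.14 ± 0.52), and Apol6 21.6, 34.9, 32.2 and 34.5 CPM with IFNγ and 2.34, 2.04, 1.33 and 0.744 CPM with IFNα1 (4.26 ± 0.32). Serpina3f had 191 counts with IFNγ and 2 with IFNα1. For Cxcl9, Apol6 and Batf2 every IFNα1 library lay below every IFNγ library. Wars had 207, 411, 284 and 255 CPM with IFNγ and 98.1, 122, 102 and 94.3 CPM with IFNα1 (1.45 ± 0.14, adjusted p = 3.16e-09). Its IFNα1 values were near the unstimulated ones. Differences of Ido1, Socs1, Socs3, Nlrc5, F3 and C1s1 were 2.96 ± 0.72, 1.06 ± 0.25, 1.16 ± 0.15, 0.95 ± 0.25, 1.09 ± 0.17 and 2.92 ± 0.66.

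Tubb3, a β-tubulin known from neurons, and Fgl2, a fibrinogen-like protein with prothrombinase activity, rose with IFNγ and were not called with IFNα1. Tubb3 had 21.2, 10.8, 4.4 and 3.83 CPM with IFNγ and 1.02, 0.568, 0.931 and 0.248 CPM with IFNα1, against 0.861, 0.617, 1.61 and 0.518 CPM in unstimulated cells (3.74 ± 0.52 over IFNα1). Fgl2 had 11, 5.82, 2.84 and 1.85 CPM with IFNγ and 1.17, 0.795, 0.399 and 0.496 CPM with IFNα1, against 0.861, 1.23, 0.161 and 0.648 CPM in unstimulated cells (2.84 ± 0.41 over IFNα1). Both were highest at 2 h of IFNγ. Calls that were lost with a duration left out were those of Gbp2 (without 12 h, 1.18 to 1.86), Ido1 (without 12 or 24 h, 2.50 to 3.33), Socs1 (without 12 or 24 h, 0.86 to 1.36) and Nlrc5 (without 12 or 24 h, 0.84 to 1.03). The change with IFNγ over unstimulated cells was 3.39 ± 0.50 for Tubb3 and 2.77 ± 0.41 for Fgl2.

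Of the 48 antiviral genes, 1 was called higher with IFNγ, against 9.48% of all genes, and 6 higher with IFNα1, against 6.61%, with a median difference of -0.24. Ifit1bl1 had 0.864, 2.1, 7.1 and 3.83 CPM with IFNγ and 10.2, 14, 6.12 and 4.09 CPM with IFNα1 (-1.45 ± 0.40). IFNα1 led at 2 h and 6 h, and IFNγ was level by 12 h and 24 h. Oas1c, an RNA-sensing synthetase, differed by -0.75 ± 0.23, Ifitm2 and Ifitm3 by -0.40 ± 0.12 and -0.26 ± 0.07, Lgals3bp by -0.36 ± 0.09, and Trim14, from the TRIM list, by -0.77 ± 0.23. Rsad2 had 1141, 859, 3656 and 3267 CPM with IFNγ and 3982, 1706, 2227 and 1823 CPM with IFNα1, higher with IFNα1 at 2 h and 6 h and higher with IFNγ at 12 h and 24 h, and its mean difference of -0.46 ± 0.34 was not called (adjusted p = 0.382). Cxcl10 and B2m were not called either, with differences of 0.06 ± 0.38 and -0.08 ± 0.09. A missed call does not show equal levels. Of 24 class I genes, 4 were higher with IFNγ and 0 with IFNα1, against 9.48% and 6.61% of all genes. Calls lost with a duration left out were Ifit1bl1 (without 2 or 6 h, -2.10 to -0.92), Oas1c (without 6, 12 or 24 h, -0.98 to -0.58), Ifitm2 (without 6, 12 or 24 h, -0.55 to -0.32), Ifitm3 (without 6 or 12 h, -0.34 to -0.24), Lgals3bp (without 6 or 12 h, -0.42 to -0.33) and Trim14 (without 6 or 12 h, -1.03 to -0.59).

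Several genes lower with IFNγ than in unstimulated cells were also lower than with IFNα1. Cxcr4 had 5.67, 4.69, 7.81 and 11.5 CPM with IFNγ and 4.38, 10.3, 42.6 and 51.2 CPM with IFNα1 (-1.70 ± 0.29), Igfbp5 had 322, 186, 50.7 and 24.2 CPM with IFNγ and 359, 342, 392 and 252 CPM with IFNα1 (-1.71 ± 0.48), and Bmf 4.56, 1.29, 1.7 and 1.45 CPM with IFNγ and 5.55, 3.29, 7.98 and 8.18 CPM with IFNα1 (-1.56 ± 0.30). Tert differed by -1.39 ± 0.33. For Cxcr4 the gap was widest late, as the IFNα1 level climbed to 24 h. Of the 41 matrix genes, 12 were higher with IFNα1 and 3 with IFNγ, against 6.61% and 9.48% of all genes. Calls lost with a duration left out were Cxcr4 (without 12 h, -2.11 to -1.31), Igfbp5 (without 6 or 12 h, -2.25 to -1.22) and Tert (without 12 h, -1.77 to -1.09).

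**Figure D5:**
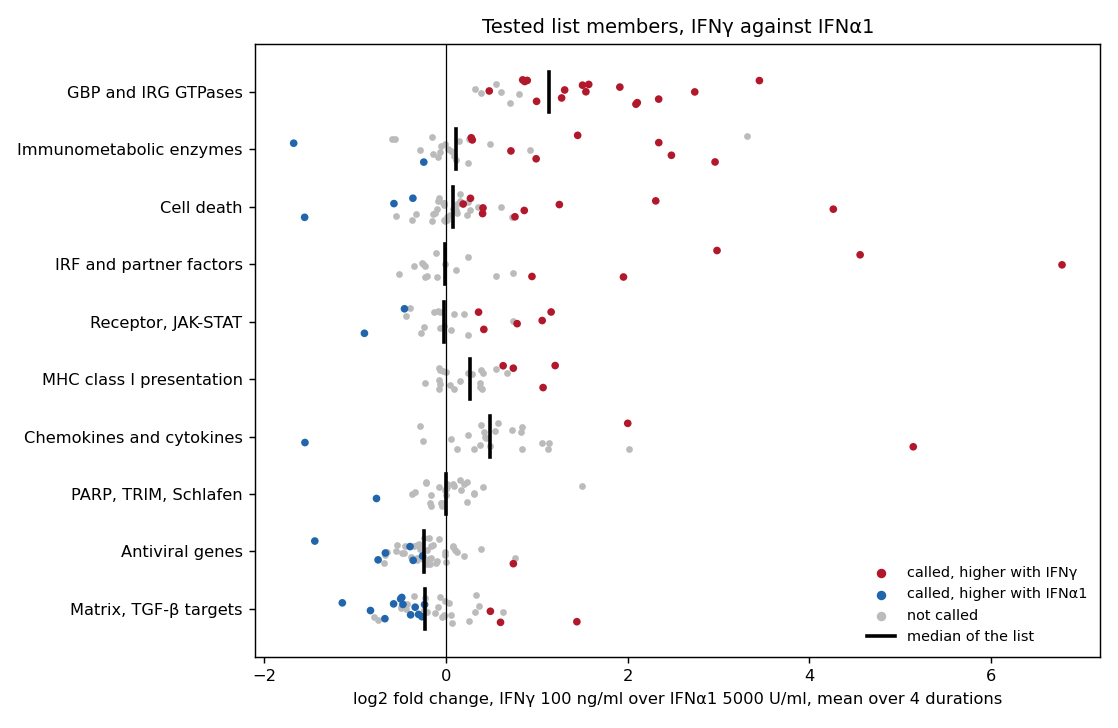
Log2 fold change of IFNγ over IFNα1, mean over 4 durations, for the tested members of 10 lists, 1 point per gene, with the median of each list as a black bar. Red points were called higher with IFNγ, blue points higher with IFNα1 and grey points not called; the GTPases lie right of 0 with a median of 1.13 and the antiviral genes mostly left of it with a median of -0.24.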

How the data were processed

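RNA of NMM cells was sequenced as stranded poly(A) libraries, per the labels' protocols. The deposited values are raw counts per Ensembl gene, not normalised by the authors, for 49671 genes. Reads were aligned with HISAT to GRCm38, per the submitters' processing notes; the sources used here give neither the version of HISAT nor how, on which annotation and with which strand setting counts were made. Overlapping and near-identical genes (Gbp, Irgm, H2, Ifit, Slfn, Serpina3) may share counted fragments.

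The test was edgeR's (version 4.0.16, in R 4.3.3; filterByExpr, minimum count 10, minimum total 15; 12203 genes kept; TMM factors; robust quasi-likelihood test, two-sided) in 1 fit over all 48 libraries and 12 stimulus groups, with terms for group and duration. The spread is how much differences between groups vary over durations, with 33 residual degrees of freedom, and 22 in the fit for late minus early. Libraries of 2 and 6 h carry the same 24 index sequences as those of 12 and 24 h, so sequencing pool and period cannot be told apart; both groups are present in each. Standard errors are the absolute log2 fold change over the square root of F. Ratios at single durations use a prior count of 2 and carry no test. A group total of 0 counts was set to 3, and 95% intervals of ratios are exact binomial; both cover counting error only. DESeq2 1.42.0 and other settings are alternatives. The code was tested on simulated data.

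Members and gene lists were chosen with earlier results of these data known. Genes named are list members or, per comparison, among the 15 largest called changes each way past 2-fold (and, for means over durations, 1 sign at all 4), without predicted genes; which are printed was decided with their values seen. A few genes are not reported here.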

Additional observations from a re-analysis of the deposited data

Results flagged for a closer look

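In 4 of the 139 genes named in the comparison with unstimulated cells, 1 of the 4 log2 ratios stood apart from the others by more of their range than Dixon's 95% critical value for 4 values. Tap1 had a ratio of 1.22 at 12 h, against 1.96 to 2.03 at the other durations. Psme2 had 1.04 at 2 h, against 1.51 to 1.59. Casp4 had 3.14 at 24 h, against 2.24 to 2.36. Serpina3f had 3.48 at 2 h, against 4.87 to 5.11. Chance sets about 1 in 20 groups apart in this way, and the durations are not replicates, so a course over time is not told apart from a deviating library.

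The late effect (12 and 24 h) differed from the early effect (2 and 6 h) in 43 of the genes named, by the test of that difference. The late effect was larger, with the difference on the log2 scale, for Sprr1a (2.51), Prdm9 (2.13), Il33 (1.52), Ccne1 (1.34), Mitf (1.15), Lgals3 (1.15), Melk (1.07), Slc6a9 (0.84), Psph (0.74), Sox2 (0.73), Ripk2 (0.72), Slc3a2 (0.71), Slc7a5 (0.70), Asns (0.64), Cars (0.52), Shmt2 (0.52), Aars (0.51), Foxm1 (0.48), Sars (0.46) and Nars (0.40). It was smaller or more negative for Tenm4 (-2.60), Megf10 (-2.47), Irf8 (-2.27), Cx3cl1 (-2.25), S1pr3 (-1.96), Hgf (-1.92), Dock8 (-1.68), Gxylt2 (-1.56), Egln3 (-1.50), Bnip3 (-1.22), Ifitm1 (-1.09), Mvd (-0.97), Pdk1 (-0.81), Lama5 (-0.80), Serpine2 (-0.76), Elovl6 (-0.74), Nsdhl (-0.71), Hsd17b7 (-0.68), Vegfa (-0.60), Mmp2 (-0.57), Lss (-0.57), Scd1 (-0.52) and Mmp14 (-0.36).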

How the results depend on the processing

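Counts of calls depended on the durations included, on the duration term and on the libraries sharing the fit. Against unstimulated cells, 2702 genes were called, and 1046 to 3436 with 1 duration left out. The count was 449 within 2 and 6 h (80.4% higher, against 58% in all), 3384 within 12 and 24 h, 615 when libraries were no longer paired by the duration term, the replicate block of this design (80.8% higher), and 1555 with the 2 compared groups alone (68.2% higher). For late minus early the 249 calls became 2 to 417 with 1 duration left out, 653 with no filter on low counts (49% higher, against 37.8%), 152 with the compared groups alone and 842 as a slope on log2 hours (50.4% higher). For IFNγ against IFNα1 the 1964 calls became 318 to 2789 with 1 duration left out, 1196 with no filter, 170 within 2 and 6 h, 3095 within 12 and 24 h, 134 without that block (70.1% higher, against 58.9%) and 456 with the compared groups alone. Other size factors, the IL-2 libraries as reference where used, and DESeq2 kept these counts within 1.5 times.

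Of the 132 named genes called against unstimulated cells, 89 were called whichever duration was left out, and all kept their direction in those 4 fits. Of the 30 called against IFNα1, 17 were. Direction reversed for Ifngr1, not called, with 1 duration left out (-0.147 to 0.006), for Ccl5 within 2 and 6 h (-0.18) and for Cx3cl1 within 12 and 24 h (-0.29) against unstimulated cells. Against IFNα1 it reversed for Ifit1bl1 within 12 and 24 h (0.068), for Cxcl10 (-0.366 to 0.399 with 1 duration left out, -0.758 within 2 and 6 h) and for Rsad2 (-0.915 to 0.214 with 1 duration left out, 0.773 within 12 and 24 h). The cause was not tested. Counts per gene list under the left-out durations, the IL-2 reference and the compared groups alone were added after seeing the data. With 1 library per duration, no value at a single duration has an error of its own, and genes of a few counts rest on counting error alone.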
